A study of Mus musculus with 12 samples.

Results

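Mouse lungs injured with bleomycin and then exposed to NVP-BHG712, an inhibitor of the EphB4 receptor kinase, were compared as whole organs with bleomycin lungs exposed to vehicle alone. The comparison rests on 6 of the 12 libraries of the series, selected by their treatment labels: Bleo_NVP-BHG712 replicates 1 to 3 (here Bleo_NVP) against Bleo_Vehicle replicates 1 to 3 (here Bleo_vehicle). Each library is a single-nucleus RNA library of 1 mouse lung, and for the whole-organ view the unique molecular identifiers (UMIs, one for each captured RNA molecule) of all its accepted nuclei were added up gene by gene. All mice were young wild-type C57BL/6J animals, and the 4 groups had 3 mice each. The Bleo_vehicle mice received bleomycin into the trachea and later the solvent mixture of N-methyl-2-pyrrolidone and polyethylene glycol by mouth, the Bleo_NVP mice received the compound in that same mixture, and the PBS_vehicle and PBS_NVP mice received saline in place of bleomycin. No genetic alteration was present in any group, the compound was given to the whole animal rather than to one cell type, and dosing began after the injury and ended before the lungs were taken. The question was what EphB4 inhibition changes in the injured lung.

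Bleomycin breaks DNA and injures the alveolar epithelium. The injured lung then fills with recruited macrophages, alveolar type II cells pass through a transitional state on the way to type I cells, and fibroblasts lay down collagen and elastin. EphB4 is a receptor tyrosine kinase found mainly on venous and capillary endothelium, and it is activated by ephrin-B2, a ligand anchored in the membrane of the neighbouring cell.

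The 6 libraries differed in size and in quality along the same line as the groups. The Bleo_vehicle libraries held 2274, 6670 and 13277 accepted nuclei with 4383243 to 58973123 UMIs, and the Bleo_NVP libraries held 1179, 2123 and 1611 nuclei with 3543536 to 7023763 UMIs. Mitochondrially encoded transcripts made up 1.429%, 1.143% and 0.6184% of the UMIs in Bleo_vehicle against 0.05424%, 0.06805% and 0.0558% in Bleo_NVP, and the 6 PBS libraries lay between 0.04799% and 0.07992%. Filters removed 27.23%, 8.63% and 2.253% of the barcodes of the Bleo_vehicle libraries, so that Bleo_vehicle replicate 1 stood apart. RNA of other cells was also found more often in the Bleo_vehicle nuclei. Sftpc, the surfactant protein C gene of type II cells, reached 180, 874 and 857 CPM (UMI counts divided by the total of the class in that library and scaled to one fixed total) in the fibroblasts of Bleo_vehicle and 32.6, 27.2 and 33.2 in those of Bleo_NVP, while in type II nuclei themselves its level was 1341, 3068 and 3686 against 3370, 3451 and 3163 (log2 difference 0.20, adjusted p = 0.77, edgeR). Erythroid transcripts, mainly the haemoglobin messages of red blood cells, summed to 49.1, 162 and 37.0 CPM in Bleo_vehicle and to 0.282, 5.27 and 1.28 in Bleo_NVP. According to the labels the Bleo_NVP libraries all came from run number 4, and the Bleo_vehicle libraries from batch 6, batch 6 and batch 7. Neither of these held libraries of both groups, so treatment and batch cannot be told apart in any value below. Markers of lung epithelium, endothelium, mesenchyme and leukocytes were present in all 6 libraries, and nuclei fell into 18 named classes, called by the cells whose markers they carry.

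Across the whole lung, 824 of 14448 tested genes (5.7%) changed between Bleo_NVP and Bleo_vehicle (edgeR quasi-likelihood test, Benjamini-Hochberg adjusted p under 0.05). Of these, 292 genes (2.02%) were higher and 532 (3.68%) lower with the inhibitor. The median log2 difference was 0.91 over the higher genes, -1.61 over the lower genes and -0.06 over all genes tested. In 816 of the 824 the 3 Bleo_NVP libraries did not overlap the 3 Bleo_vehicle libraries, against 33.1% of all genes tested. Fibroblasts contributed more than any other class to 202 of the rises, alveolar macrophages to 234 of the falls, and 13 of the falls were mitochondrially encoded. In sums over a whole organ, fewer cells of a type and less RNA per cell cannot be told apart, and the classes are therefore followed further on. Counts of calls in the gene lists below are to be read beside the 5.7% called over all genes. The number of whole-lung calls depended on single libraries. Without Bleo_NVP replicate 3 it was 75, without Bleo_NVP replicate 1 it was 80, without Bleo_NVP replicate 2 it was 264, without Bleo_vehicle replicate 2 it was 324, without Bleo_vehicle replicate 1 it was 414, and without Bleo_vehicle replicate 3 it was 2242. With the batch 7 library as the only Bleo_vehicle library, 55 genes were called, of which 49 were among the 824.

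**Figure D1:**
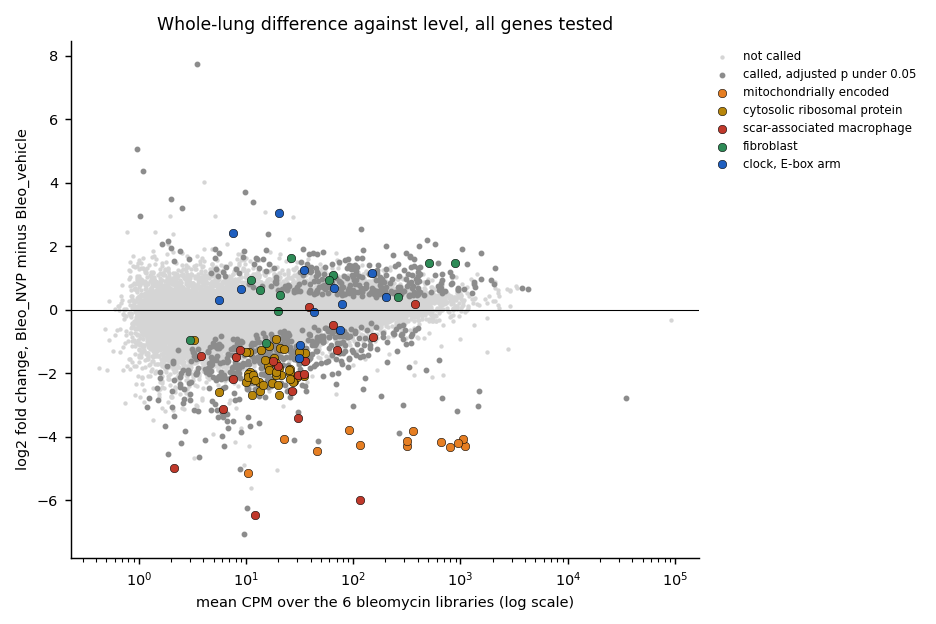
Log2 difference between Bleo_NVP and Bleo_vehicle (vertical axis) against the mean CPM over the 6 bleomycin libraries (horizontal log axis), 1 point for each of the 14448 genes tested, with members of 5 gene lists in colour. The 13 mitochondrially encoded genes lie together around their median of -4.19, the ribosomal protein genes around -1.98 and the scar-associated macrophage genes around -1.69, and the fibroblast markers lie mostly above 0 with a median of 0.77.

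**Figure D2:**
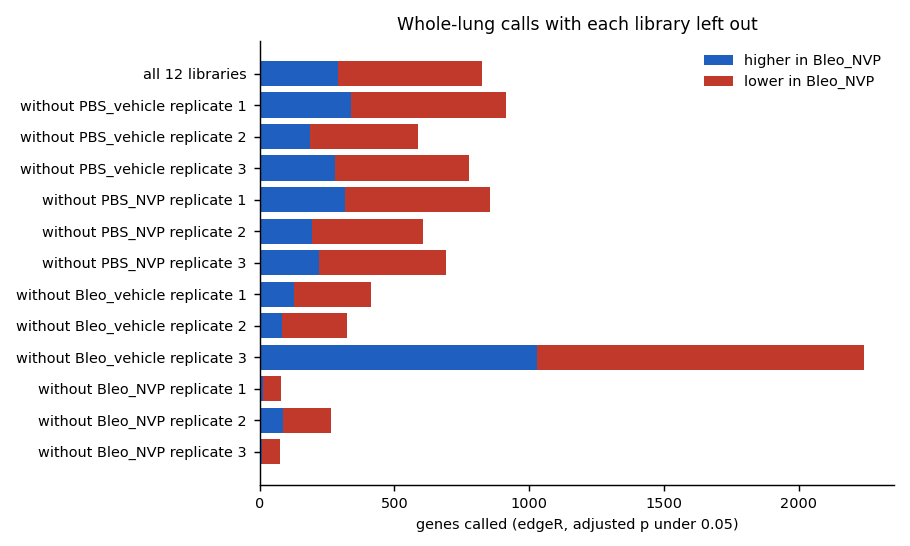
Number of whole-lung calls (adjusted p under 0.05) with each library in turn left out, and with genes higher and lower in Bleo_NVP shown separately. The count runs from 75 without Bleo_NVP replicate 3 to 2242 without Bleo_vehicle replicate 3, against 824 with all 12 libraries.

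The gene of the targeted receptor did not change detectably in its own expression. Ephb4 (chr5:137350109-137378669, plus strand, GRCm38) measured 28.2, 41.4 and 29.4 CPM of the whole lung (here with TMM-scaled library totals) in Bleo_vehicle and 28.1, 26.2 and 23.0 CPM in Bleo_NVP, a log2 difference of -0.36 (SE 0.28, adjusted p = 0.435). The highest Bleo_NVP value lay just under the lowest Bleo_vehicle value. Its PBS levels averaged 33.2 CPM with vehicle and 29.8 CPM with the inhibitor. Efnb2, which encodes ephrin-B2, measured 47.2, 72.4 and 90.2 CPM in Bleo_vehicle and 74.6, 102 and 75.1 CPM in Bleo_NVP, and the groups overlapped (log2 difference 0.26, SE 0.25, adjusted p = 0.538). Ephb4 was tested in 6 cell classes and called in none by edgeR. Its log2 difference was negative in all 6, at -0.13 in general capillary cells and -0.04 in venous endothelium. Type II cells contributed 26.2% of its whole-lung difference and aerocytes 25.1%. In venous endothelium Ephb4 stood at 248, 272 and 220 CPM of the class in Bleo_vehicle and at 233, 274 and 265 in Bleo_NVP. Among 11 Eph receptor genes tested, 2 rose and none fell (median log2 -0.07). Epha3, a receptor for A-type ephrins, rose from 72.0, 60.3 and 66.7 CPM to 142, 121 and 174 CPM (log2 1.14, SE 0.29, adjusted p = 0.0432), and 100% of its difference lay in fibroblasts. Within classes Epha3 was called in 0 of 1 tested. Epha1 rose from 3.19, 3.92 and 5.01 CPM to 9.94, 6.01 and 10.5 CPM (log2 1.06, SE 0.27, adjusted p = 0.0413). Both calls were lost when Bleo_vehicle replicate 1 or 2 or Bleo_NVP replicate 1 or 3 was left out, Epha3 also without Bleo_NVP replicate 2, and in both some of the PBS libraries had the same effect. None of the 6 ephrin genes tested was called by edgeR, and none had an unadjusted p under 0.05 (median log2 -0.12).

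Macrophage genes of injury were lower with the inhibitor. Of 20 tested genes that mark scar-associated macrophages, the lipid-handling cells that gather in fibrotic lung, 14 fell and none rose (70.0% called against 5.7% of all genes, median log2 -1.69). Spp1 (chr5:104435118-104441050, plus strand), which encodes the secreted adhesion protein osteopontin, measured 489, 145 and 54.0 CPM in Bleo_vehicle and 2.92, 2.93 and 4.87 CPM in Bleo_NVP. Every Bleo_NVP library thus lay under every Bleo_vehicle library, and the PBS groups averaged 4.83 and 6.07 CPM. The fall in Spp1 was 63.0-fold (log2 -5.98, SE 0.83, adjusted p = 0.00395). Arg1, the arginine-degrading enzyme of wound-healing macrophages, measured 56.7, 10.9 and 5.11 CPM and then 0.292, 0.44 and 0 CPM (log2 -6.47, SE 1.08, adjusted p = 0.00932), with 4 UMIs left in the 3 Bleo_NVP libraries together. The Arg1 call was lost without Bleo_NVP replicate 1 or replicate 3, where the adjusted p reached 0.0614. In both genes Bleo_vehicle replicate 1 was by far the highest library.

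Other members of the macrophage list were more even across the libraries. Apoe, the lipid carrier apolipoprotein E, measured 68.3, 61.3 and 39.3 CPM in Bleo_vehicle and 5.56, 4.98 and 5.43 CPM in Bleo_NVP (10.6-fold lower, log2 -3.40, SE 0.29, adjusted p = 0.000103). Gpnmb, a glycoprotein of lipid-laden macrophages, fell from 46.4, 52.1 and 39.7 CPM to 7.89, 7.48 and 8.24 CPM (log2 -2.55, SE 0.36, adjusted p = 0.00435). Cd63, a lysosomal membrane tetraspanin, fell from 38.3, 28.8 and 26.2 CPM to 9.65, 7.62 and 9.93 CPM (log2 -1.78, SE 0.24, adjusted p = 0.00319). In these 3 genes the spread inside a group was small beside the gap between groups, and the Apoe call held under each of the 40 other settings tried (highest adjusted p 0.00298). The protease Mmp12 fell from 5.90, 12.3 and 14.6 CPM to 0.585, 1.17 and 1.87 CPM, and the lipid receptor Trem2 from 4.42, 4.2 and 3.97 CPM to 0, 0.293 and 0 CPM. Also called lower were the lectin Lgals3, the cathepsins Ctsk, Ctsl and Ctsd, the membrane protease Mmp14, the cytokine receptor Il7r and the sugar-phosphate transporter Slc37a2. Lipa and Cd36, which serve lipid breakdown and uptake, overlapped between the groups at log2 0.09 and 0.18. Without Bleo_NVP replicate 1, 2 or 3 the list held 5, 8 and 6 calls, and without Bleo_vehicle replicate 1 it held 9.

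**Figure D3:**
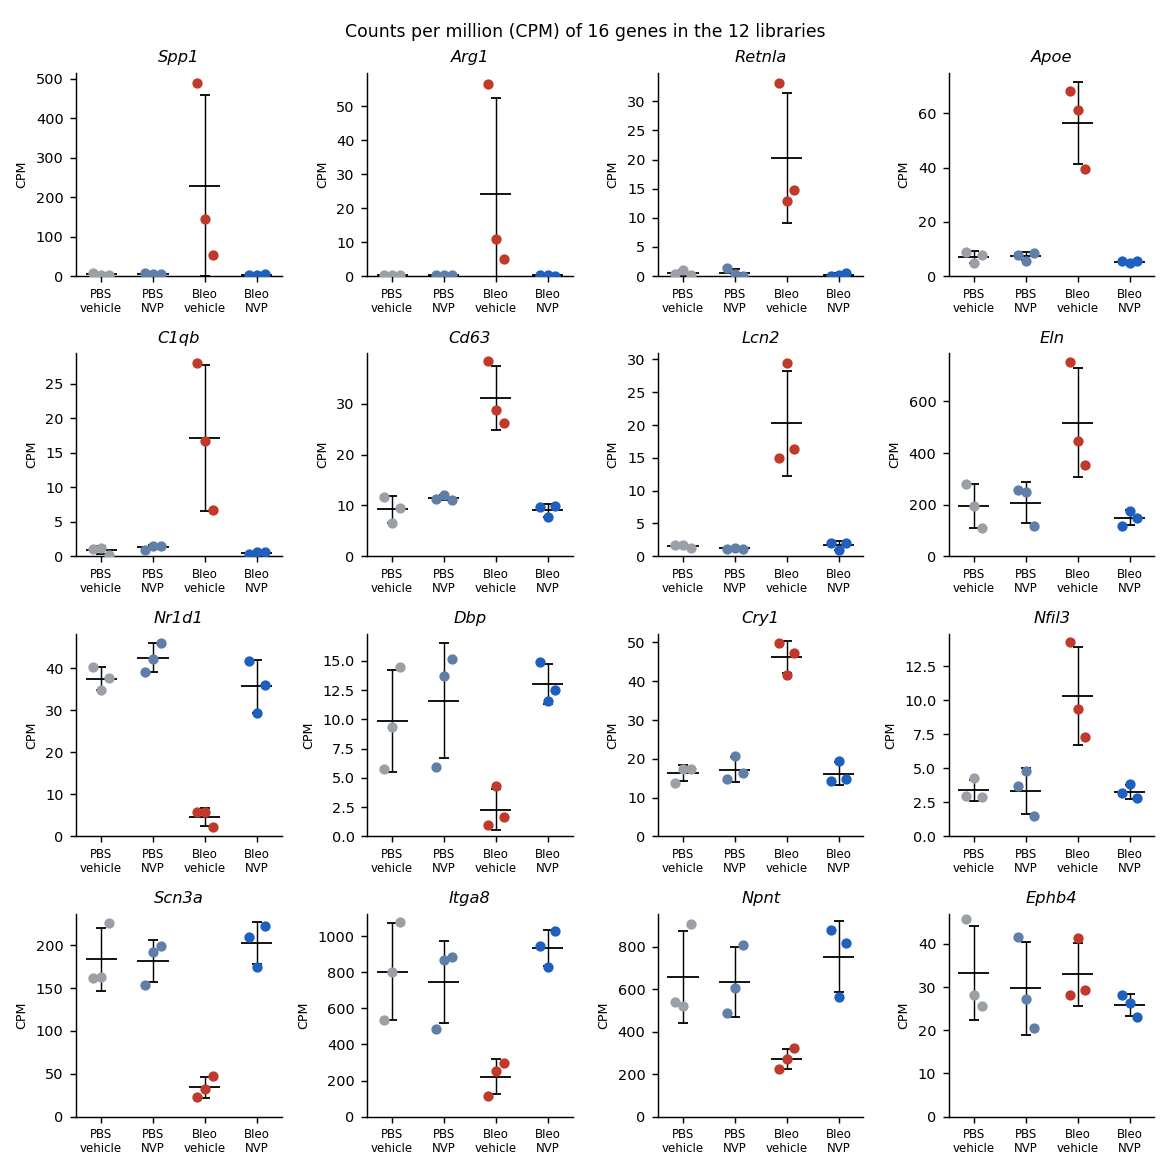
Level in CPM of 16 genes in each of the 12 libraries, grouped as PBS_vehicle, PBS_NVP, Bleo_vehicle and Bleo_NVP, on linear axes that start at 0, with the group mean as a line and the SD as a bar. Spp1 spans 54.0 to 489 CPM in Bleo_vehicle and at most 4.87 CPM in Bleo_NVP, while Nr1d1 is at most 5.9 CPM in Bleo_vehicle and at least 29.3 CPM in Bleo_NVP.

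The markers of monocytes and interstitial macrophages followed, with 5 of 14 tested genes falling and none rising (median log2 -1.69). C1qb, a chain of complement C1q, measured 28.0, 16.7 and 6.73 CPM in Bleo_vehicle and 0.292, 0.586 and 0.562 CPM in Bleo_NVP (log2 -5.02, SE 0.66, adjusted p = 0.00319). Without Bleo_NVP replicate 1, 2 or 3 the list held 2, 3 and 3 calls, and without Bleo_vehicle replicate 3 it held 10. The partner chains C1qa (log2 -3.73) and C1qc (log2 -4.08) and the membrane protein Ms4a7 (log2 -1.61) fell as well. Csf1r, the receptor on which macrophages depend for survival, measured 52.1, 41.0 and 40.6 CPM against 44.2, 30.2 and 46.8 CPM (log2 -0.14, adjusted p = 0.748). Retnla, a secreted product of macrophages and epithelium exposed to type 2 cytokines, measured 33.2, 12.9 and 14.8 CPM and then 0, 0.147 and 0.562 CPM (log2 -6.24, SE 0.91, adjusted p = 0.00528). Its difference lay mostly outside macrophages, with 19.2% in fibroblasts, 14.8% in type II cells and 10.3% in type I cells as the largest parts. Of 3 classes tested it was called in 2, fibroblasts and type I cells. The part of free RNA in the Retnla fall was not tested. Of 12 tested genes for chemokines and their receptors 1 fell and none rose (8.33% called against 5.7% of all genes, median log2 -1.14). Msr1, a scavenger receptor, measured 115, 29.1 and 20.7 CPM against 4.39, 5.28 and 7.31 CPM (log2 -3.23, adjusted p = 0.015). Among 12 markers of resident alveolar macrophages, 1 fell (8.33% called against 5.7% of all genes, median log2 -0.36). That gene was Atp6v0d2, a proton pump subunit, with 273, 225 and 227 CPM against 111, 156 and 133 CPM.

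Alveolar macrophage nuclei were also a smaller part of the Bleo_NVP libraries. Alveolar macrophages made up 19.5%, 10.7% and 9.83% of the Bleo_vehicle nuclei and 6.34%, 6.23% and 7.80% of the Bleo_NVP nuclei, without overlap. Interstitial macrophages and monocytes made up 7.17%, 4.05% and 4.68% of the nuclei against 1.28%, 4.6% and 1.82%, and the groups overlapped, while their part of the UMIs averaged 4.05% in Bleo_vehicle and 1.05% in Bleo_NVP without overlap. With 3 libraries against 3, an exact permutation test of such a share cannot give a p under 0.1. The larger cluster of the interstitial macrophage and monocyte class held 1298 nuclei over all libraries. Its mean log2 fold was 2.73 for the markers it is named by and 2.809 for dendritic cell markers. No class was named for dendritic cells, so this class may include them. Levels within nuclei differed too. In alveolar macrophages Spp1 measured 1000, 418 and 201 CPM of the class against 21.8, 20.4 and 38.7 (log2 -4.40, adjusted p = 0.00756), and Gpnmb measured 183, 324 and 327 against 59.8, 104 and 59.5 (log2 -1.92, adjusted p = 0.00518). Spp1 was also counted in fibroblast nuclei, at 501, 123 and 39.5 CPM in Bleo_vehicle fibroblasts and 0.987, 0 and 1.25 in Bleo_NVP fibroblasts. The part of free RNA in the macrophage falls was not tested.

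Matrix genes were fewer among the calls than macrophage genes. Of 19 tested genes of the activated fibroblast matrix, 4 fell and none rose (median log2 -0.76). Eln, which encodes elastin, measured 754, 447 and 353 CPM in Bleo_vehicle and 118, 177 and 150 CPM in Bleo_NVP, with PBS means of 194 and 207 CPM. The fall was 3.48-fold (log2 -1.80, SE 0.39, adjusted p = 0.0235), 68.9% of it lay in fibroblasts, and the call was lost when any single Bleo_NVP library or Bleo_vehicle replicate 1 was left out. Eln had a negative log2 difference in all 11 classes tested. It was called in 7 of them, alveolar macrophages, ciliated cells and alveolar epithelium included. The part of free RNA in this fall was not tested. Ltbp2, a partner of elastic fibres, fell from 82.5, 35.3 and 26.0 CPM to 8.48, 9.82 and 5.81 CPM (log2 -2.55, SE 0.50, adjusted p = 0.0163). Timp1, the inhibitor of matrix metalloproteinases, fell from 25.5, 5.84 and 2.43 CPM to 0.877, 0.293 and 0.937 CPM (log2 -3.99, SE 0.93, adjusted p = 0.0311). The other member called was Spp1. Of the matrix genes that did not pass, Fn1 and Postn, encoding fibronectin and periostin, were lower in all Bleo_NVP libraries at log2 -0.89 and -1.5. Of all genes tested, 17.5% were lower without overlap in this way. Tnc, Acta2 and Cthrc1 overlapped. Fn1 was called in 7 of the 11 cell classes tested, and so was Sparc in 7 of 10, though neither was called in the whole lung. Calls made up 0% to 6.49% of the genes tested in a class. The part of free RNA in the Fn1 and Sparc class calls was not tested. The list held 1 call without any one Bleo_NVP library, 2 without Bleo_vehicle replicate 1 and 8 without Bleo_vehicle replicate 3.

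Of 9 tested fibrillar collagen genes, 2 fell and none rose (median log2 -0.53). Col1a1, the main chain of type I collagen, measured 96.8, 53.2 and 28.3 CPM in Bleo_vehicle and 18.7, 18.0 and 24.9 CPM in Bleo_NVP (log2 -1.51, SE 0.36, adjusted p = 0.0341). The groups lay close to each other, and the call was lost when any one of 5 of the 6 bleomycin libraries was left out, Bleo_vehicle replicate 3 being the exception. Fibroblasts contributed 23.9% of the Col1a1 difference and type II cells 15.6%. Of 4 classes tested, Col1a1 was called in 2, general capillary and type I cells. The part of free RNA in this fall was not tested. Col24a1, a minor fibrillar collagen, fell from 9.58, 7.69 and 6.95 CPM to 1.75, 3.67 and 2.25 CPM (log2 -1.59, adjusted p = 0.0466). Col1a2 and Col3a1 overlapped between the groups at log2 -0.23 and -0.53. In the basement membrane, 2 genes fell and 2 rose of 18 tested (median log2 0.14). Col4a1 and Col4a2, the paired chains of the common type IV collagen network, fell by 1.03 and 0.91 on the log2 scale, while the laminin chains Lama3 and Lama4 rose by 1.12 and 0.89. Col4a1 measured 515, 471 and 403 CPM against 211, 287 and 182 CPM, and Lama3, the laminin chain of epithelium, measured 184, 202 and 222 CPM against 511, 308 and 506 CPM. In type I cells Lama3 rose from 462, 713 and 720 to 1436, 1182 and 1410 CPM of the class (log2 1.11, adjusted p = 0.00309). Within the TGF-beta pathway 2 of 21 genes fell and none rose (9.52% called against 5.7% of all genes, median log2 -0.15). Ltbp2 was among them.

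The largest rises lay in fibroblasts. Of 12 tested fibroblast markers 4 rose and none fell (median log2 0.77). Without Bleo_NVP replicate 1, 2 or 3 the number that rose was 0, 3 and 0, and without replicate 3 a single member fell. Itga8 (chr2:12106632-12301922, minus strand), the integrin chain that partners with beta 1, measured 111, 255 and 295 CPM in Bleo_vehicle and 947, 827 and 1027 CPM in Bleo_NVP (4.22-fold higher, log2 2.08, SE 0.36, adjusted p = 0.0108). Npnt, which encodes nephronectin and thus the matrix ligand of that integrin, measured 224, 270 and 321 CPM and then 880, 563 and 816 CPM (log2 1.47, SE 0.26, adjusted p = 0.0124). Both genes stood near their PBS levels in Bleo_NVP, since PBS_vehicle averaged 805 CPM for Itga8 and 658 CPM for Npnt. Scn3a, a voltage-gated sodium channel, rose from 22.4, 32.4 and 47.1 CPM to 210, 175 and 222 CPM (log2 2.55, SE 0.24, adjusted p = 0.000241), and 99.9% of the difference came from fibroblasts. The guidance gene Slit2 rose from 342, 495 and 584 CPM to 1213, 1376 and 1346 CPM, its receptor Robo2 rose by 1.93 and the netrin receptor Unc5c by 2.21 on the log2 scale. Fgfr4, a growth factor receptor, rose from 6.39, 16 and 14.9 CPM to 41.8, 34.0 and 44.4 CPM, and Col13a1, a transmembrane collagen that marks alveolar fibroblasts, rose from 36.4, 41.3 and 45.5 CPM to 84.8, 72.0 and 78.7 CPM.

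Further rises of the same size were the cation transporter Slc22a3 (log2 2.40), the giant cadherin Fat3 (2.02), the membrane-bending protein Amph (2.01), the sulfotransferase Chst8 (1.91), the lipid kinase Dgkb (1.88), and Colq, the collagen-like tail of acetylcholinesterase (3.40). Colq was the least even of them, with 28.7, 5.42 and 29.2 CPM in Bleo_NVP. Best3, a chloride channel of the bestrophin family, rose by 1.61, and the uroplakin Upk1b, a mesothelial marker, by 1.14, the latter as the only call among 7 mesothelial genes. For all of these genes fibroblasts contributed 98.0% or more of the difference. Fibroblasts supplied 18.4%, 22.6% and 18.6% of the UMIs in Bleo_vehicle and 28.8%, 31.5% and 29.6% in Bleo_NVP, so their larger share moved with these rises. Levels inside the class also differed for most of these genes. Slc22a3, Fat3, Amph, Chst8, Best3, Upk1b, Npnt, Robo2, Unc5c, Slit2 and Fgfr4 were called in fibroblasts. Colq and Col13a1 were each called in 0 of 1 class tested, and Dgkb in 0 of 2. Itga8 measured 431, 851 and 1446 CPM of the class in Bleo_vehicle and 3098, 2472 and 3270 in Bleo_NVP (log2 1.81, adjusted p = 0.0101), and Scn3a measured 72.1, 103 and 226 against 685, 515 and 709 (log2 2.33, adjusted p = 0.00161). The fibroblast class joins 5 clusters whose mix moved with the groups. The cluster that Itga8, Amph, Fat3 and Robo2 help to define held 23.2%, 33.2% and 39.8% of the Bleo_vehicle fibroblasts and 44.4%, 49.9% and 46.4% of the Bleo_NVP fibroblasts, and the cluster led by Adamtsl2 and Tnc held 41%, 30.4% and 17% against 25.3%, 12.2% and 17.9%. The part of this mix in the levels was not tested. With fibroblast nuclei left out of the whole-lung sums, Itga8, Scn3a, Slc22a3, Unc5c, Amph, Robo2, Dgkb, Best3, Slit2, Fgfr4, Col13a1 and Upk1b all turned to negative log2 values.

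Of 17 tested genes of the transitional alveolar epithelium, 5 fell and none rose in the whole-lung sums (median log2 -0.99), and the count was 0, 1 and 1 without Bleo_NVP replicate 1, 2 or 3, 2 without Bleo_vehicle replicate 1 and 8 without Bleo_vehicle replicate 3. Clu, a chaperone secreted by repairing epithelium, measured 10.6, 16.5 and 16.5 CPM in Bleo_vehicle and 1.75, 3.37 and 4.50 CPM in Bleo_NVP (log2 -2.15, SE 0.39, adjusted p = 0.0124). Sfn, the epithelial 14-3-3 protein induced by p53, fell from 18.7, 6.20 and 5.02 CPM to 0.877, 2.20 and 1.31 CPM (log2 -2.62, adjusted p = 0.0185). Cdkn1a, the cell-cycle inhibitor p21, fell from 49.9, 20.8 and 21.1 CPM to 11.1, 7.48 and 6.37 CPM (log2 -1.87, adjusted p = 0.0268). Cldn4, a tight-junction protein of the transitional cells, was counted 143 times under vehicle and 2 times under the inhibitor, 14.7 times as often after scaling to depth (95% counting interval 4.0 to 123). Inside classes, Clu was called in 0 of 3 and Cdkn1a in 0 of 6, while Sfn and Cldn4 passed the count filter in none. Type I nuclei contributed 45.6% of the whole-lung difference of Sfn, 44.9% of that of Cldn4 and 33.9% of that of Cdkn1a, and type II nuclei 24.6% of that of Clu. Lgals3 was the remaining call, and the keratins Krt8, Krt18 and Krt19, which also mark this state, overlapped between the groups at log2 -0.71, -0.66 and -0.59. The p53 targets as a list had 2 falls of 20 tested, Cdkn1a and the growth repressor Phlda3 (10.0% called against 5.7% of all genes, median log2 -0.48).

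Of 12 tested type I cell genes, Rtkn2, a GTPase effector, rose and the glycoprotein Pdpn fell in the whole-lung sums (16.7% called against 5.7% of all genes, median log2 0.29). Rtkn2 measured 912, 1426 and 1653 CPM against 2508, 2318 and 2761 CPM (log2 0.93, SE 0.19, adjusted p = 0.0197), and the P5-type ATPase Atp13a4 rose in the whole lung by 1.88 with 74.2% of the difference in type I cells. Pdpn measured 123, 119 and 103 CPM against 81.9, 64.1 and 81.5 CPM. Neither Rtkn2 nor Pdpn was called in type I nuclei. Type I cells led the Rtkn2 difference, but of 11 classes tested Rtkn2 was higher in 1, called higher in 0 and called lower in 2. Of 5 classes tested, Pdpn was called in 2, alveolar macrophages and fibroblasts, and 37.0% of its difference lay in type I cells. Surfactant production genes had 3 falls among 14 (median log2 -0.40). Scd1, the fatty acid desaturase, fell from 34.1, 44.2 and 102 CPM to 12.3, 10.6 and 12.0 CPM (log2 -2.40, adjusted p = 0.0163), and Napsa, the protease that trims surfactant proteins, from 25.8, 46.9 and 45.5 CPM to 16.4, 16.7 and 15.6 CPM. Neither was called in type II nuclei. Scd1 was called in club, fibroblast, general capillary and type I nuclei, with 36.6% of its difference in type II cells. Napsa was called in alveolar macrophage, fibroblast and type I nuclei, and fibroblasts led its difference with 15.9%. Sftpc was called lower in the sums with overlapping groups, at 283, 1303 and 1262 CPM against 356, 299 and 296 CPM, and its largest contribution, 18.4% of the difference, came from counts in fibroblast nuclei. That call was lost without Bleo_vehicle replicate 2 or 3, without any one Bleo_NVP library and without any one PBS library. Of 12 club cell genes 3 fell and none rose (median log2 -0.26). They were the secretoglobins Scgb1a1 and Scgb3a2 (log2 -1.89 and -1.71) and the airway defence protein Bpifa1 (log2 -2.54). Scgb1a1 in club nuclei measured 4789, 4843 and 4282 CPM against 2444, 2401 and 3381 and was not called there. The club nuclei of PBS_vehicle spanned a like range, at 4986, 2482 and 2560 CPM. In fibroblast nuclei Scgb1a1 measured 287, 562 and 794 against 48.4, 29.0 and 50.8. Its class calls were in alveolar macrophages, ciliated cells, fibroblasts and type II cells. The free RNA share of the surfactant and club cell falls was not tested. Cilium genes leaned the other way, with a median log2 of 0.93 over 23 genes, 13 of them higher without overlap (against 15.6% of all genes) and 1, the dynein Dnah11, called (log2 0.93, adjusted p = 0.0278). Without Bleo_vehicle replicate 3, 18 of the 23 were called, and without any other bleomycin library 0. Ciliated nuclei made up a mean of 3.30% of Bleo_vehicle and 4.86% of Bleo_NVP.

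The circadian clock was called in both directions. The clock is a loop in which BMAL1 (Arntl) with CLOCK or NPAS2 switches on, through E-box sequences, the Per, Cry, Nr1d1, Nr1d2 and Dbp genes, and in which REV-ERB alpha (Nr1d1) represses Arntl, Npas2, Nfil3 and Cry1. Nr1d1 (chr11:98767932-98775333, minus strand) measured 5.90, 5.84 and 2.27 CPM in Bleo_vehicle and 41.8, 29.3 and 36.0 CPM in Bleo_NVP. The rise was 8.25-fold (log2 3.05, SE 0.32, adjusted p = 0.000477), and the PBS groups averaged 37.6 and 42.5 CPM. Dbp, a transcription factor of clock output, rose from 0.983, 4.27 and 1.63 CPM to 14.9, 11.6 and 12.6 CPM (log2 2.42, SE 0.51, adjusted p = 0.0219). Cry1, a repressor of the loop, fell from 49.9, 41.7 and 47.3 CPM to 14.3, 19.5 and 14.8 CPM (log2 -1.5, SE 0.19, adjusted p = 0.00244). Nfil3, a repressor of Dbp targets, fell from 14.2, 9.33 and 7.31 CPM to 3.22, 3.81 and 2.81 CPM (log2 -1.60, adjusted p = 0.037). None of these 4 genes overlapped between the groups. The calls for Nr1d1 and Cry1 held under each of the 40 other settings, with adjusted p of at most 0.0108 and 0.0288.

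The promoters of these clock genes are shown because both arms of the loop act through short DNA sequences. They run from 250 bases before to 50 bases after the transcript start and were taken from RefSeq on GRCm38.p6, written 5′ to 3′ on the strand of the gene. Capitals in Nr1d1 (chr11:98775328-98775627, minus strand), Dbp (chr7:45704997-45705296, plus strand) and Cry1 (chr10:85185005-85185304, minus strand) would mark the E-box CACGTG, which reads the same on both strands, and capitals in Nfil3 (chr13:52980990-52981289, minus strand) mark the motif AGGTCA bound by REV-ERB receptors, on either strand, where TGACCT is its reverse complement.
Nr1d1: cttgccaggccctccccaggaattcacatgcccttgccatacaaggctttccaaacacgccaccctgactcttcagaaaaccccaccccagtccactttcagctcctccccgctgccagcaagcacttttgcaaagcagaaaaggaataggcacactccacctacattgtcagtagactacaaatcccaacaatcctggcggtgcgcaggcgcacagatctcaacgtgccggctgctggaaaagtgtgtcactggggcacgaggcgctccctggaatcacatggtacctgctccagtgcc
Dbp: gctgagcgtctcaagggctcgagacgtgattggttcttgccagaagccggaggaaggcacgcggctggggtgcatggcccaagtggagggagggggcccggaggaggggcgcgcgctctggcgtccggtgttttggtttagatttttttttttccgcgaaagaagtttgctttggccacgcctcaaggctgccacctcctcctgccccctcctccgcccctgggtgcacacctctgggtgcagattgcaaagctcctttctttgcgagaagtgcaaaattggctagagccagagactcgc
Cry1: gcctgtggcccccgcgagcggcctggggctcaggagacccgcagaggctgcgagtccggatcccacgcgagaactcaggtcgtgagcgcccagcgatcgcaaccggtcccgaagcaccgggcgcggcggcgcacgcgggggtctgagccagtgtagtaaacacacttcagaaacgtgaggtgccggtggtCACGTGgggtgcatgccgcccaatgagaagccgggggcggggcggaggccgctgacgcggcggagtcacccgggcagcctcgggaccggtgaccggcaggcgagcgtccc
Nfil3: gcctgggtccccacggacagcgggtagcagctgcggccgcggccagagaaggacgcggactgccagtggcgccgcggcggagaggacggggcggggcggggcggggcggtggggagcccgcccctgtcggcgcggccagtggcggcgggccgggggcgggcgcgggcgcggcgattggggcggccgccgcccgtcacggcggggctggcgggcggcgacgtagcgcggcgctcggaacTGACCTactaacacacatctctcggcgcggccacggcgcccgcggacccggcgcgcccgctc
Within these windows Cry1 held 1 CACGTG and Nfil3 held 1 AGGTCA on the opposite strand, and the Nr1d1 and Dbp windows held neither. Over all 32851 RefSeq promoters of the same length, 7.15% held CACGTG and 16.3% held AGGTCA. A match describes letters only, and the lack of one says only that these letters are not in the window.

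Over the whole E-box arm of 13 genes, 2 rose and 1 fell (median log2 0.40), and 6 were higher and 2 lower in Bleo_NVP without overlap, against 15.6% and 17.5% of all genes. The arm held 2 calls without any one Bleo_NVP library. Nr1d2, which encodes REV-ERB beta, measured 89.4, 133 and 56.0 CPM against 194, 224 and 207 CPM (log2 1.17, adjusted p = 0.058). Hlf and Per3 were likewise higher without overlap and without a call, at log2 1.24 and 0.70, while Per1 (log2 -0.07), Per2 (log2 -0.64) and Tef (log2 0.40) overlapped. Of the 6 activators and their partners 2 fell, among them Nfil3 (median log2 -1.43). Arntl measured 85.7, 40.7 and 58.2 CPM against 26.0, 23.8 and 27.4 CPM (log2 -1.25, adjusted p = 0.137), Npas2 had a log2 difference of -1.77 (adjusted p = 0.0704), and Clock measured 205, 175 and 213 CPM against 193, 189 and 185 CPM (log2 -0.07). Nr1d1 rose in each of the 4 classes in which it could be tested. In fibroblasts it measured 1.27, 8.48 and 6.23 CPM of the class, with plain totals, against 66.1, 48.8 and 55.8 (log2 3.27, adjusted p = 6.43e-05), and it rose by 3.22 in type I cells, 3.51 in type II cells and 2.93 in club cells. Cry1 fell in fibroblasts (log2 -1.67, adjusted p = 0.00459) and type I cells (log2 -1.60, adjusted p = 0.0226). The hour at which each lung was taken is not given in the sources used here, and its part in these differences was not tested.

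Transcripts of mitochondria and ribosomes were lower across the whole lung. All 13 mitochondrially encoded genes fell (median log2 -4.19), and so did 41 of 43 listed cytosolic ribosomal protein genes (median log2 -1.98). mt-Co1, a subunit of cytochrome c oxidase, measured 2934, 2180 and 1155 CPM in Bleo_vehicle and 94.4, 133 and 91.1 CPM in Bleo_NVP (19.6-fold lower, log2 -4.30, adjusted p = 7.71e-05). Rps23, a protein of the small ribosomal subunit, fell from 28.2, 22.1 and 22.4 CPM to 4.97, 4.84 and 4.31 CPM (log2 -2.36, adjusted p = 0.00319). The PBS means of mt-Co1 were 103 and 122 CPM, near the Bleo_NVP level. Of all called genes of both kinds, 87 fell, and 85 of them could be tested in a class. Their log2 difference was negative in 469 of 469 gene-by-class pairs, against 1622 of 1817 (89.3%) for the other lower genes. The leading class carried a median of 17.2% of the difference, against 37.2% for the others. All these genes were chosen by a fall in sums over the same classes, and pairs share the same 6 libraries. The signs are therefore a description and no separate evidence. A further pair of large falls had the same spread over classes. AY036118 (chr17:39847113-39848035), which overlaps a ribosomal RNA repeat so that the origin of its reads is uncertain, fell from 642, 470 and 374 CPM to 31.3, 45.2 and 24.9 CPM, and Cmss1, whose product is named for the small ribosomal subunit, from 2484, 1928 and 578 CPM to 149, 274 and 129 CPM. They were called in 9 and 5 of 11 classes. Nuclear long noncoding RNAs had no call among 6 tested (2 with an unadjusted p under 0.05, edgeR, median log2 -0.24) and heat shock genes none among 12 (1 with an unadjusted p under 0.05, median log2 -0.38).

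Further falls met the naming rule. Lcn2, the iron-binding protein lipocalin 2, measured 15, 29.5 and 16.3 CPM in Bleo_vehicle and 2.05, 0.88 and 2.06 CPM in Bleo_NVP (12.7-fold lower, log2 -3.67, SE 0.37, adjusted p = 0.000412). Mt1, a metallothionein, measured 45.2, 17.5 and 10.4 CPM against 2.05, 1.91 and 2.06 CPM (log2 -3.56, adjusted p = 0.0136). Chl1, a neural adhesion molecule, fell from 100, 45.6 and 14.3 CPM to 1.75, 3.23 and 3.93 CPM with 81.7% of the difference in fibroblasts, and Clca3a1, a chloride channel regulator, from 34.6, 15.8 and 7.37 CPM to 1.17, 2.93 and 0.937 CPM. Interferon-stimulated genes had 3 falls among 25 (Oas2, Oasl2 and Rsad2, median log2 -0.62). MHC class II genes had 1 fall among 8, the invariant chain Cd74, at 17.9, 66.1 and 83.8 CPM against 14.6, 16.9 and 10.7 CPM (log2 -2.01, adjusted p = 0.0244). Among immune cell lists, T and NK lymphocyte markers had 1 call of 6 (Il7r, median log2 -0.98), B lymphocyte and plasma cell markers 0 of 7 with 0 at an unadjusted p under 0.05, neutrophil markers 0 of 2 with 1, and platelet markers 0 of 1 with 0, all by edgeR. Erythroid genes had median log2 -4.96 and 0 calls of 4, with 3 at an unadjusted p under 0.05. Of 16 proliferation genes none was called by edgeR and 6 had an unadjusted p under 0.05 (median log2 -0.94), and the same counts among 24 immediate early genes were 0 and 6 (median log2 -0.58). Cardiomyocyte genes gave 0 of 6 with 0 at an unadjusted p under 0.05, and sex-linked genes 0 of 4 with 0. Xist did not reach the level needed for a test.

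Endothelial lists held few calls. Neither the 10 aerocyte markers nor the 10 general capillary markers held a call by edgeR, with 3 and 1 at an unadjusted p under 0.05 (median log2 -0.31 and -0.18). Of 12 genes of injured endothelium 3 fell (median log2 -1.14). Lrg1, a secreted glycoprotein that acts on endothelial TGF-beta signalling, measured 13, 12.3 and 11.3 CPM in Bleo_vehicle and 0.292, 1.61 and 1.5 CPM in Bleo_NVP (log2 -3.29, SE 0.44, adjusted p = 0.00319), and Col15a1, a basement membrane collagen, fell by 1.51 with 56.5% of its difference in fibroblasts. General capillary cells contributed 14.8% of the Lrg1 difference and fibroblasts 13.6%, and Lrg1 was called in these 2 classes. The third gene that fell was Spp1, for which alveolar macrophages contributed most. Lymphatic markers had 2 falls of 6, Reln and Pdpn (median log2 -1.17). Lymphatic nuclei were 1.06% of Bleo_vehicle and 0.443% of Bleo_NVP on average, and 68.7% of the fall in Reln, a secreted guidance protein, lay in them. With DESeq2 the proliferation, aerocyte, general capillary and nuclear noncoding lists held 1 call each and the immediate early list 2, and the ephrin, heat shock, erythroid, B lymphocyte, neutrophil, platelet, cardiomyocyte and sex-linked lists held 0. Smooth muscle and pericyte genes had 1 fall of 10, the actin nucleator Lmod1 (median log2 -0.81).

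The 824 genes were then followed through 11 cell classes with enough nuclei. Of these genes 759 could be tested in at least 1 class, and 486 were called there in the same direction, 289 of them in 1 class, 85 in 2 and 112 in 3 or more. The rises were local. Fibroblasts led the difference, as the class that contributed most to it, for 202 of the 292 higher genes and type I cells for 74, and the leading class carried a median of 84.3% of the rise. The falls were spread. Alveolar macrophages led for 234 of the 532 lower genes, fibroblasts for 124, type I cells for 95, type II cells for 38 and interstitial macrophages or monocytes for 22, and the leading class carried a median of 32.9%. No higher gene but 43 lower genes were called in 5 or more classes. Levels inside the classes, as opposed to the sizes of the classes, accounted for a median of 83.1% of the rises and 85.9% of the falls. A shift between clusters inside a class counts as a level here, and so does RNA of other cells counted in its nuclei. In 35 genes a class was called opposite to the whole lung, and 33 of these were genes that rose in the whole lung.

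**Figure D4:**
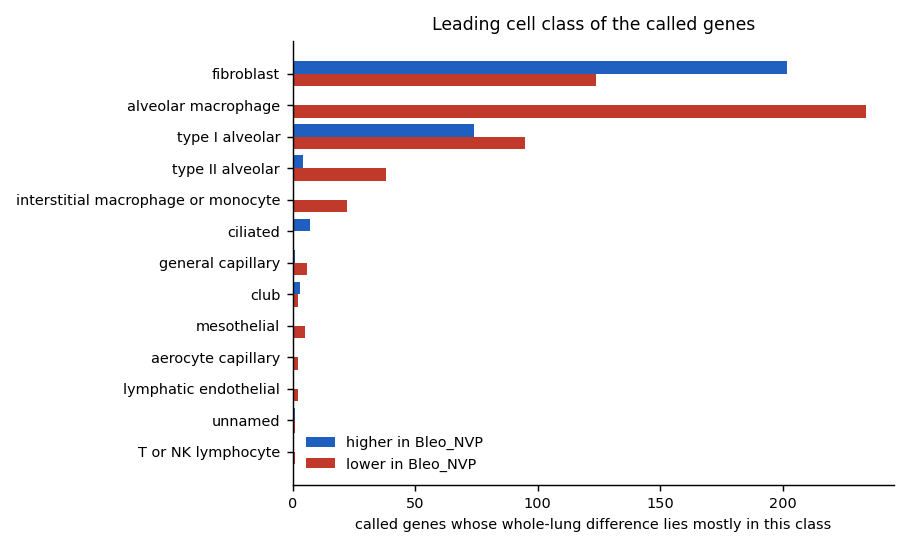
Number of whole-lung calls led by each cell class, that is, the class that contributed most to the difference, with genes higher and lower in Bleo_NVP as separate bars. Fibroblasts lead 202 of the 292 higher genes, and alveolar macrophages lead 234 of the 532 lower genes.

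Within classes, calls by edgeR amounted to 677 of 10425 genes in fibroblasts (6.49%, 253 higher and 424 lower), 493 of 9270 in type I cells (5.32%), 400 of 6249 in alveolar macrophages (6.4%), 286 of 5862 in ciliated cells (4.88%), 269 of 6120 in general capillary cells (4.4%), 249 of 6335 in type II cells (3.93%) and 178 of 7051 in club cells (2.52%). Venous endothelium gave 41 of 3603 (1.14%), aerocytes 59 of 4781 (1.23%) and arterial endothelium 11 of 2267 (0.485%). Interstitial macrophages and monocytes gave 0 of 4034, with 325 at an unadjusted p under 0.05, and Bleo_NVP replicate 1, with 15 such nuclei, was not in that fit. Nr1d1 was the largest rise that met the naming rule in type I, type II and club cells and the next largest in fibroblasts. The other rises so named follow, in CPM of the class with TMM-scaled totals. In fibroblasts Gsg1l, an AMPA receptor auxiliary subunit, rose from 0, 1.91 and 6.23 to 57.8, 62.4 and 59.4 CPM of the class (log2 3.87, adjusted p = 0.00953). In type I cells Pde8b, a cyclic AMP phosphodiesterase, rose from 70.8, 270 and 310 to 1197, 1326 and 1557 CPM (log2 2.63, adjusted p = 0.00771). In type II cells Fbn2, which encodes fibrillin 2, rose from 3.31, 2.10 and 6.56 to 79.5, 24.1 and 24.2 CPM (log2 3.08, adjusted p = 0.0206). The naming rule admitted only genes without overlap between the groups, so their separation is no further result.

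Rises outside fibroblasts and alveolar epithelium were not always visible in the whole lung. In aerocytes Kif26b, an atypical kinesin, rose from 99.4, 67.7 and 135 to 528, 508 and 728 CPM (log2 2.50, adjusted p = 0.000145) and the disintegrin protease Adam12 by 2.11 on the log2 scale, and neither was called in the whole lung. In alveolar macrophages the splicing factor Rbfox1 rose by 2.38 and the copine Cpne5 by 2.27, again without a whole-lung call. In general capillary cells the semaphorin Sema6d rose from 305, 360 and 542 to 1632, 1124 and 1617 CPM (log2 1.81, adjusted p = 0.00135), and the sodium channel Scn7a by 1.75. In venous endothelium the prostaglandin synthase Ptgs2 rose by 1.97 and the matrix protein Hmcn1 by 1.54. In club cells Nr1d2 rose by 2.04. Ciliated cells had Panct2 (log2 1.68) and Chpt1, a phosphatidylcholine-forming enzyme (log2 1.62), and arterial endothelium had the glutamate receptor Grik2 (log2 2.09).

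The largest falls in most classes included transcripts typical of other cells. Spp1 was among the 2 largest falls in aerocytes, ciliated cells, fibroblasts, general capillary cells, type I cells and type II cells. In type I cells it had 492 UMIs in Bleo_vehicle and 0 in Bleo_NVP, which is at least 47.1-fold lower with 3 counts over the group as the floor, and in fibroblasts 1115 UMIs against 3, a ratio per UMI of 142 (95% counting interval 48.4 to 689). Lyz2, the lysozyme of macrophages and type II cells, was among the 2 largest falls in aerocytes (691 UMIs against 1), arterial endothelium (239 against 2) and venous endothelium (421 against 2), and Sftpc in arterial endothelium (1112 against 10). Apoe in club cells (86 UMIs against 0), Lcn2 in general capillary cells (124 against 0) and Csmd1, a complement regulator, in venous endothelium (119 against 0) were at least 9.64-fold, 8.73-fold and 9.36-fold lower. The other falls among the 2 largest of a class were these. In alveolar macrophages Il7r had 170 UMIs against 0, at least 8.62-fold lower, and Ptgs1, cyclooxygenase 1, had 218 against 1, a ratio of 33.1 (5.89 to 1320). In type I cells Gadd45g, a growth arrest gene, fell from 46.7, 17.1 and 16.3 to 3.52, 0.638 and 1.15 CPM of the class, TMM-scaled (log2 -3.96, adjusted p = 0.0051). In fibroblasts the chromatin protein Hmga2 had 219 UMIs against 1, a ratio of 83.6 (14.8 to 3320), and in ciliated cells Igfbp7 had 212 against 1, a ratio of 51.0 (9.05 to 2020). All these intervals and floors cover counting error only.

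**Figure D5:**
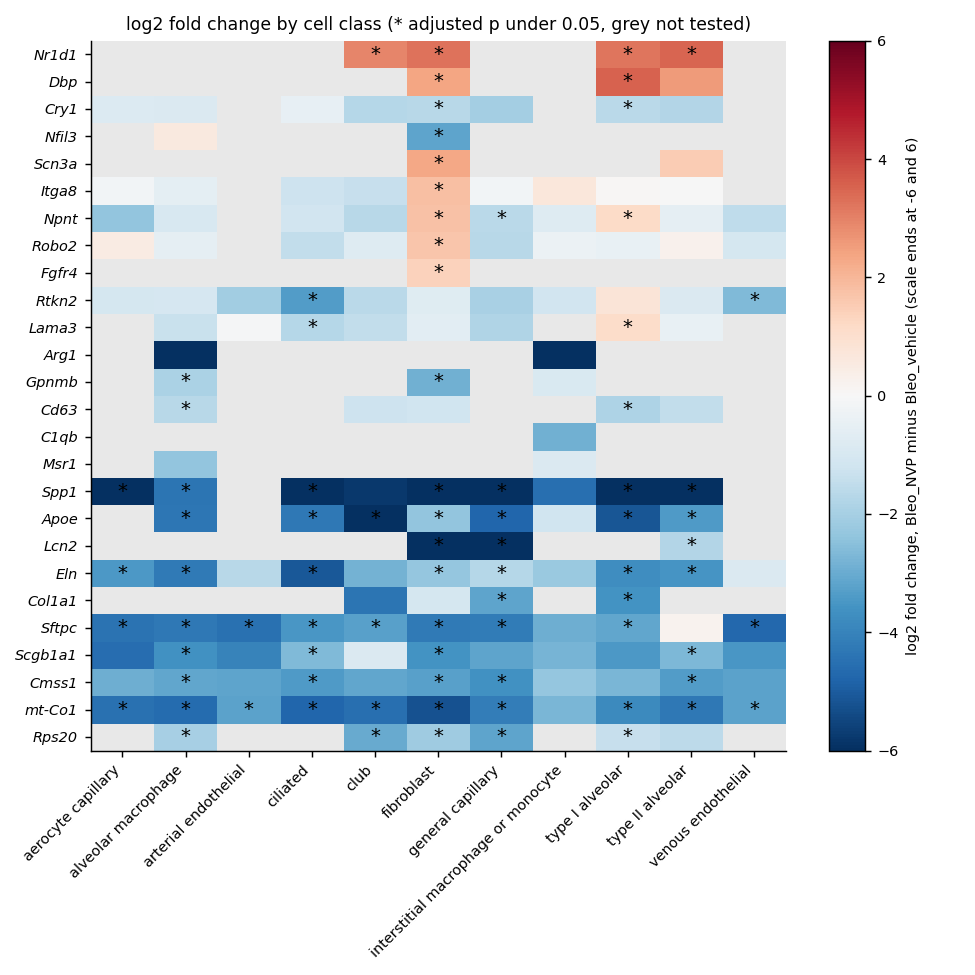
Log2 difference between Bleo_NVP and Bleo_vehicle of 26 genes (rows) in 11 cell classes (columns), in colour with the scale ending at -6 and 6, where an asterisk marks an adjusted p under 0.05 and grey a gene that was not tested in that class. Spp1 and Apoe are lower in each class tested, with 7 calls each, whereas Itga8 and Scn3a are called in fibroblasts only, of the classes tested, and Nr1d1 is called in all 4 classes in which it was tested.

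The saline groups show what the inhibitor did without injury. PBS_NVP against PBS_vehicle had 0 of 14448 genes called by edgeR, with 38 at an unadjusted p under 0.05, and 0 by DESeq2, with 83. Same-numbered saline libraries deviated together, although the labels put replicate 3 of PBS_vehicle in run 2 and replicate 3 of PBS_NVP in run 3. With the replicate number as a block in the saline libraries, chosen after seeing the data, the edgeR calls were 0. Of these tests, 51 had an unadjusted p under 0.05 (391 when the 6 PBS libraries were fitted alone). The interaction, which tests whether the effect of the inhibitor under bleomycin differed from that under saline, was called for 47 genes (0.325%), 5 with a positive and 42 with a negative sign, and 11 of them were mitochondrially encoded and 10 ribosomal. With the block in the PBS libraries only, the interaction was called for 324 genes, 119 positive and 205 negative, and the bleomycin comparison for 1944. Nr1d1 had an interaction of 2.87 on the log2 scale (SE 0.41, adjusted p = 0.0136), since it was 37.6 and 42.5 CPM in the PBS groups and differed there by 0.18. Scn3a (2.56), Best3 (1.84), Spp1 (-6.22), Apoe (-3.43) and Lcn2 (-3.22) also passed, as did Cry1 at -1.59 and C1qb at -5.42. Eln, at -1.89 with an adjusted p of 0.179, Itga8, at 2.19 with 0.10, and Arg1, at -6.45 with 0.135, did not.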

How the data were processed

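Nuclei were sorted by the authors from frozen mouse lungs and made into 10x Genomics 3′ libraries, 1 for each of 12 mice. The authors aligned the reads to mm10 with Cell Ranger (7.2.0 per the file headers, 7.0 per the processing notes) and deposited raw counts, whole numbers of UMIs for every gene and barcode. No ambient RNA correction is part of these counts.

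From the deposited counts, barcodes with 200 to 6000 genes and at most 5% mitochondrial UMIs were kept (27134 of 28932 in the 6 bleomycin libraries) and summed per library. All 12 sums entered one fit with a mean for each group: edgeR 4.0.16, filterByExpr, TMM scaling, the robust quasi-likelihood test, two-sided, with Benjamini-Hochberg adjustment over 14448 genes and a threshold of 0.05. Levels in CPM of the whole lung use TMM-scaled totals, and so do the levels within classes that are introduced as TMM-scaled. Sums of marker lists and all other levels within classes use the plain totals. The biological coefficient of variation was 0.246. Same-numbered PBS_vehicle and PBS_NVP libraries, some of which share a run number in the labels, deviated together from their group means (correlations 0.888, 0.638 and 0.739), so a fit blocking the PBS libraries on their replicate number was added after seeing the data. The replicates are separate mice, so p-values measure the spread between mice within a batch pattern that matches the groups. The total per library, 3543536 to 58973123 UMIs, limits the precision of low genes.

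For the cell classes, doublets scored by the scrublet method in scanpy 1.11.5 were removed (5.72%), 30 components of 2000 variable genes were corrected for library by Harmony, and 34 Leiden clusters were compared with 27 marker lists, which named 31 clusters in 18 classes and left 1237 nuclei unnamed. Names rest on markers and are to be read as fibroblast-like, macrophage-like and so on. Class sums were tested in the same way where every group had at least 2 libraries with 20 nuclei (11 classes). The contribution of a class is its part of the difference between group means of CPM, which was divided into levels within classes and sizes of classes. Barcodes shared between libraries were at most 0.848% of the smaller library.

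The members and the 40 gene lists were chosen with earlier results of these data known. Genes were named in the whole lung when called, at 10 CPM or more on average over the 6 bleomycin libraries, without overlap between groups, not mitochondrially encoded and not predicted genes (12 largest rises and 12 largest falls), with up to 4 called members per list by adjusted p, 3 and 3 for the interaction, 2 and 2 per class, and Ephb4, Efnb2, Eln, Spp1, Nr1d1, Dbp, Col1a1 and Xist in any case. Some genes that met the rules are not reported here. Gene positions are from GENCODE M21 on GRCm38, which held 31011 of 31053 identifiers. Alternatives were DESeq2 1.42.0, RLE scaling, no filter on low counts, the 6 bleomycin libraries alone, a replicate block, each library left out, batch 7 as the only vehicle batch, stricter or no barcode filters, and mitochondrial and ribosomal genes or single classes left out. The scripts were tested on simulated data.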

Additional observations from a re-analysis of the deposited data

Results flagged for a closer look

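For 47 of 14448 genes the difference between NVP-BHG712 and vehicle was not the same after bleomycin as after saline by the interaction term of the edgeR fit (adjusted p under 0.05), while 2116 had an unadjusted p under 0.05, and for 324 genes blocking the PBS libraries on their replicate number. All 47 were also called between Bleo_NVP and Bleo_vehicle, 11 were mitochondrially encoded and 10 were ribosomal protein genes. By the naming rule, the positive differences were Nr1d1 at log2 2.87 (adjusted p = 0.0136), Scn3a at 2.56 (adjusted p = 0.00533) and Best3 at 1.84 (adjusted p = 0.0483). In Nr1d1 and Scn3a the 3 Bleo_vehicle libraries were lower than all 9 other libraries, with the PBS means of Scn3a at 184 and 182 CPM. The negative differences were Spp1 at -6.22 (adjusted p = 0.0409), Apoe at -3.43 (adjusted p = 0.00221) and Lcn2 at -3.22 (adjusted p = 0.0336). The PBS means of Apoe were 7.1 and 7.35 CPM and those of Lcn2 1.55 and 1.19 CPM. The Bleo_vehicle libraries, which stand apart in these genes, come from batches that hold no other group, so the interaction and the batch cannot be told apart.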

How the results depend on the processing

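The 824 whole-lung calls became 1745 with DESeq2, 512 with the 6 bleomycin libraries alone, 352 with a stricter choice of nuclei (500 UMIs or more, mitochondrial share up to 1%), 55 with batch 7 as the only vehicle batch, where the lone library was assumed to vary like the other groups, and 75 (without Bleo_NVP replicate 3) to 2242 (without Bleo_vehicle replicate 3) with 1 library left out. Apart from the blocks, the other alternatives gave 603 to 923. The 47 interaction calls became 345 with DESeq2, 19 with the stricter nuclei, 19 with batch 7 alone, 5 without mitochondrial and ribosomal protein genes, and 13 (without Bleo_NVP replicate 1) to 220 (without Bleo_vehicle replicate 3) with 1 library left out, with 158 without PBS_vehicle replicate 1 and 14 to 19 without PBS_vehicle 2 or 3, PBS_NVP 1 or 2, Bleo_vehicle 2 or Bleo_NVP 2 or 3. The 486 class calls, genes also called in a class, became 173 (without Bleo_NVP replicate 3) to 608 (without Bleo_vehicle replicate 3), with 211, 253 and 270 without Bleo_NVP 1, Bleo_NVP 2 and Bleo_vehicle 2. Why these counts moved was not tested. With the replicate block, whole-lung calls were 1943 and interaction calls 374. A block in the PBS libraries only, where same-numbered libraries deviated together, chosen after seeing the data, gave 1944 and 324. The numbers do not pair the bleomycin mice, since same-numbered libraries correlated at 0.0167, 0.261 and -0.122 and 1 of 3 Bleo_NVP libraries correlated best with its own number. Of 84 called genes that met the naming rules, 14 kept their call and 67 their direction in every alternative. The exceptions turned when the class that led them was left out: without fibroblasts Scn3a was -0.03, Slc22a3 -1.73, Unc5c -0.18, Itga8 -0.44, Amph -0.44, Robo2 -0.21, Dgkb -0.04, Best3 -0.04, Lama4 -0.23, Epha1 -0.27, Epha3 -0.44, Upk1b -0.6, Col13a1 -1.17, Fgfr4 -0.24 and Slit2 -0.53 on the log2 scale, and without type I cells Lama3 was -1.09 and Rtkn2 -1.35. Efnb2, not called, was -0.09 with batch 7 alone and -0.16 without general capillary cells. Depth limits genes with few UMIs in the small Bleo_NVP libraries, where a count of 0 allows up to 3.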

Other observations

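Some genes outside the naming rule were singled out after their values were seen. Fst, which encodes the activin antagonist follistatin, measured 49.4, 6.48 and 1.46 CPM in Bleo_vehicle and 0, 0.147 and 0.187 CPM in Bleo_NVP (adjusted p = 0.0288, edgeR). C3ar1, the receptor of complement C3a, measured 10.6, 5.98 and 4.56 CPM against 0.585, 0.147 and 0.187 CPM. Tgfbi, a matrix protein induced by TGF-beta, measured 414, 85 and 33.6 CPM against 20.5, 18.3 and 25.5 CPM (log2 -3.03, adjusted p = 0.0275). In Fst and Tgfbi Bleo_vehicle replicate 1 was the highest library by far.

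In the other direction Pinlyp, a phospholipase inhibitor, had 2 UMIs in the 3 Bleo_vehicle libraries together and 27, 56 and 25 UMIs in the Bleo_NVP libraries, while PBS_vehicle measured 0.958, 19.2 and 1.86 CPM. Col17a1, the hemidesmosomal collagen, rose from 0.737, 0.356 and 0.903 CPM to 2.92, 2.35 and 4.12 CPM (log2 2.16, adjusted p = 0.0129). The urinary protein gene Mup6 had 4 UMIs in Bleo_vehicle and 10, 10 and 7 in Bleo_NVP (log2 5.06, adjusted p = 0.0125), and its value is uncertain because it belongs to a family of near-identical copies.

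Fkbp5, a target of glucocorticoids, measured 925, 524 and 317 CPM in Bleo_vehicle and 55, 319 and 50.4 CPM in Bleo_NVP and was not called (log2 -2.04, adjusted p = 0.149). Bleo_NVP replicate 2 lay just above the lowest Bleo_vehicle library.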
